A study of Rattus norvegicus with 48 samples.

Results

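The genes of coagulation, complement and the acute phase were followed in rat liver and in preneoplastic liver nodules that were or were not given triiodothyronine (T3), the active thyroid hormone. A list of 52 genes of these plasma proteins was looked up by symbol in the probe annotation of the array, and each gene was represented by its probe with the highest mean intensity before normalisation. Of the 52 genes, 46 had a probe, 1 each, and 45 passed the detection filter and were tested among 11558 features, drawn from 22523 probes. They comprise 16 coagulation genes, 14 complement genes and 15 acute-phase genes. Lipocalin 2 (Lcn2) was detected on 3 of 48 arrays, all of KRT-19-positive nodules, and was not tested. F9, Fga, C3, C5, C8b and Masp1 were not found under these symbols in the annotation used and are not analysed here.

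The series holds 48 single-colour bead arrays of liver RNA from male Fischer rats, 1 sample on each. The groups are KRT-19-positive preneoplastic nodules without T3 (10 arrays), the same kind of nodules after T3 for 2 d (10 arrays) and after T3 for 4 d (10 arrays), KRT-19-negative preneoplastic nodules (10 arrays) and control liver (8 arrays). KRT-19 is keratin 19, an intermediate filament protein of bile duct cells and hepatic progenitor cells. The labels give no age, no T3 dose and no method of nodule induction. Whether each array of a group stands for its own animal is not stated, and p-values then cover just the scatter among these arrays, part of which may be technical. In bulk tissue of this kind, fewer hepatocytes and less RNA per hepatocyte cannot be told apart.

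Hepatocytes make and secrete most of the proteins of the clotting cascade, its inhibitors, the complement system and the acute-phase reactants. Clotting factors activate each other in sequence until thrombin turns fibrinogen into fibrin, while antithrombin, heparin cofactor II and the protein C system restrain thrombin and plasminogen dissolves the clot. Complement is started by the classical proteases, by mannose-binding lectins or by the alternative pathway, and ends in a membrane attack complex. Acute-phase genes are those whose liver expression changes with inflammatory cytokines, through factors of the STAT and C/EBP families, on a basal liver programme that uses HNF1, HNF4, FOXA and C/EBP alpha.

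Promoter sequences from RefSeq (build GRCr8) were available for 40 of the 52 genes, and the 250 bases before the annotated start were searched on both strands. The HNF1 motif GTTAAT was present in 11 of 40 promoters of these genes (27.5%), and in 6.46% of 27457 promoters of all genes. The C/EBP-type motif TTNNGNAA occurred in 72.5% of the 40 and in 36.8% of all, and the STAT-type motif TTCNNNGAA in 20% and 7.52%. The nuclear receptor motif AGGTCA occurred in 32.5% and 13.7%. No match to CAAAGTCCA (HNF4 type), the NF-kB consensus or the DR4 direct repeat bound by thyroid hormone receptors lay in these 40 windows, which says nothing about those factors. Matches of different motifs can overlap, and these shares are a description. The promoters of the fibrinogen beta chain (Fgb), the carrier subunit of factor XIII (F13b) and inter-alpha inhibitor heavy chain 1 (Itih1) are shown as examples. Each holds the HNF1 motif, and each gene was lower than control liver in KRT-19-positive nodules and higher after T3 for 4 d than without it. F2, C8a and C4bpa held the motif and had the same calls. Plg, Proc and C4bpb held it too and were not called higher after T3 for 4 d. Fga and C5, also with the motif, had no probe. A link between motif and response was not tested. Capitals mark the motif, here on the opposite strand, and each sequence runs 5′ to 3′ along its gene.
Fgb (chr2:170700876-170701125, strand -): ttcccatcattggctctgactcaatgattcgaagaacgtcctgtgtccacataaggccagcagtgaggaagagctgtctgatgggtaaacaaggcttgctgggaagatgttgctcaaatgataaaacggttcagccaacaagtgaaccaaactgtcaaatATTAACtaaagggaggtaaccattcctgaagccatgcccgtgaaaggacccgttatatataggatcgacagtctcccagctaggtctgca
F13b (chr13:53681389-53681638, strand +): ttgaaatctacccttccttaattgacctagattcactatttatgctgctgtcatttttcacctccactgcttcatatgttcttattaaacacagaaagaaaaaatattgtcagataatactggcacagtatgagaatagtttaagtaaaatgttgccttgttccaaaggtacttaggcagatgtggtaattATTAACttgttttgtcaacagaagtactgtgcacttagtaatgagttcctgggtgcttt
Itih1 (chr16:6142814-6143063, strand -): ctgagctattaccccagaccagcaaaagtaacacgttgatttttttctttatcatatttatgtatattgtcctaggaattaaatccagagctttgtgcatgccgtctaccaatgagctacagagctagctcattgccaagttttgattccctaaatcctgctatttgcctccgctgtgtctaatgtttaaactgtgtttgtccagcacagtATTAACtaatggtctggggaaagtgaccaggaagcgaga
The first base of the match lay 90, 59 and 39 bases before the start in Fgb, F13b and Itih1. The same windows held further matches in lower case. They were C/EBP-type matches in each of the 3, a STAT-type match in Fgb and a nuclear receptor match in F13b.

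Each array had between 8380 and 10695 detected probes. All tested members except A2m were detected on every array. Of the 45, 13 came within 0.5 log2 of the brightest normalised value (15.27 log2) on at least 1 array, among them F2, Fgb, Fgg, Hp, Hpx, Serpina1 and Ahsg, so differences in these may be understated. The T3-responsive genes were higher after T3 for 4 d than in untreated KRT-19-positive nodules. The log2 difference was 3.38 for the deiodinase Dio1, 2.92 for malic enzyme (Me1) and 1.12 for Thrsp. Krt19 RNA differed by -3.80 in that comparison and did not follow the labels in every group. It lay at 11.03 to 12.73 log2 in untreated KRT-19-positive nodules, 8.87 to 11.74 after T3 for 2 d and 7.47 to 8.77 after 4 d. KRT-19-negative nodules had 6.06 to 10.09 and control liver 5.67 to 7.94. The T3 4 d arrays, titled KRT-19-positive, thus had Krt19 RNA within the KRT-19-negative range. Albumin, the defining hepatocyte product, did not pass the test after T3 for 4 d against untreated KRT-19-positive nodules (-0.05) or in KRT-19-positive nodules against control (0.07). It is among 5 hepatocyte markers tested, whose summed signal is bright, so differences in them may be understated too. Of these 5, 2 were higher and 0 lower after T3 for 4 d than without it (median 0.215 log2), where 27.1% and 26.6% of all features were. In KRT-19-positive nodules against control 0 were higher and 2 lower (median -0.299), against 24.8% and 23.9% of all features.

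Within the T3 4 d group, arrays 1, 3, 8 and 9 stood apart. Their levels of the lipopolysaccharide-binding protein gene Lbp were 12.63, 12.75, 11.29 and 11.87 log2, while the other 6 arrays lay between 9.66 and 10.00. The same 4 arrays had 12.95 to 14.50 log2 of Gstp1, the placental glutathione transferase that marks preneoplastic rat hepatocytes, and the other 6 had 9.36 to 10.56. They also held the highest values of the complement protease C1s and of ceruloplasmin (Cp). For comparisons with the T3 4 d group, member calls that changed without these arrays are named beside the results. The arrays were set apart after their values were seen. P-values without them are therefore a description, and no test of genes that stood apart on these arrays. In the untreated KRT-19-positive group array 1 had the lowest value for 23 of the 45 members, and in the T3 2 d group array 1 had the lowest for 19.

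Values below are normalised log2 intensities, and the threshold for a call was 0.05 in limma's p adjusted over all features of a comparison. Against untreated KRT-19-positive nodules, nodules after T3 for 4 d had 23 members higher, 7 lower and 15 that did not pass. Among all features 53.7% were called in that comparison, 27.1% higher and 26.6% lower. The ranges of both groups did not overlap for 11 of the 45 members, against 17.6% of all features. After T3 for 2 d, 6 members were higher and 9 lower than without T3, where 15.8% and 15.5% of all features were (31.3% called in all). No member's 2 d range was separate from the untreated range, against 4.08% of all features. The median log2 difference of the members was 0.25 at 4 d and -0.05 at 2 d, and that of all features was 0.00 and 0.01. Before normalisation the brightest probe of an array read 24989 to 37132 at 4 d and 40746 to 50400 without T3. Some members called higher at 4 d had a lower mean raw intensity there, such as F2 (24830 against 31537) and Fgb (21602 against 28907). Others had a higher one, such as Serpind1 (13326 against 10090) and Mbl2 (1244 against 656). The calls hence depend on normalisation, and the source of the raw difference was not tested.

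**Figure D1:**
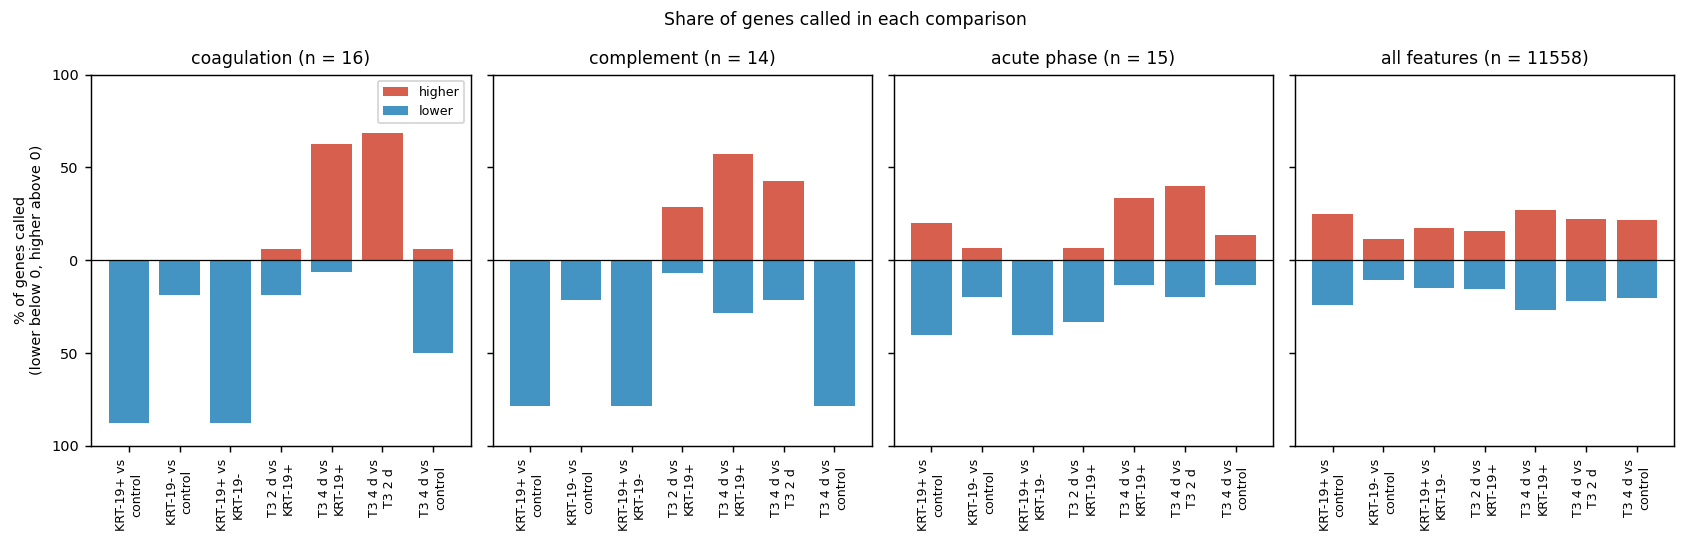
Share of tested genes called higher (above 0) and lower (below 0), in percent, in the 3 gene groups and over all 11558 features, for each of 7 comparisons (limma adjusted p under 0.05). Below control in KRT-19-positive nodules were 14 of 16 coagulation genes and 11 of 14 complement genes, and 10 of 16 and 8 of 14 were higher after T3 for 4 d than without T3. Of all features 23.9% were below control and 27.1% higher after T3 for 4 d.

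KRT-19-positive nodules had less RNA than control liver of most coagulation and complement genes, while the acute-phase genes were divided. Of the 45 members, 31 were lower, 3 higher and 11 did not pass, against 48.7% of all features called, 23.9% lower and 24.8% higher. The median difference of the members was -0.68 log2 and that of all features -0.03. The ranges did not overlap for 23 members, against 15.9% of all features. KRT-19-positive nodules had lower levels of 14 of 16 coagulation genes, 11 of 14 complement genes and 6 of 15 acute-phase genes than control liver, with medians of -0.67, -0.84 and 0.10 log2.

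Factor X (F10), the protease that turns prothrombin into thrombin, had 7.99 to 9.57 (median 8.88) log2 on the KRT-19-positive arrays and 10.04 to 10.60 (median 10.42) in control liver. The ranges were apart, and F10 was 2.78-fold lower, a log2 difference of -1.48 ± 0.16 (SE, adjusted p = 4.38e-11). Factor XI (F11), a protease of the contact pathway, had 7.33 to 8.64 (median 8.28) in KRT-19-positive nodules and 9.26 to 9.99 (median 9.68) in control, also with separate ranges and 2.75-fold lower. Protein S (Pros1), the cofactor of activated protein C, had 10.13 to 10.82 (median 10.32) in the nodules and 11.10 to 11.57 (median 11.45) in control, a difference of -1.05 ± 0.10 (SE, adjusted p = 5.89e-13). Factor XII (F12), which starts the contact pathway, differed by -0.99 ± 0.12 (SE, adjusted p = 5.07e-10). All 6 inhibitors and fibrinolysis genes were lower in KRT-19-positive nodules, from antithrombin (Serpinc1, -0.81) and heparin cofactor II (Serpind1, -0.77) to the fibrinolysis inhibitor Cpb2 (-0.36). Factor V (F5, -0.03) and the fibrinogen gamma chain (Fgg, -0.09) were the coagulation genes that did not pass.

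Complement held the largest differences. The terminal component C6, part of the membrane attack complex, had 9.03 to 10.71 (median 9.86) log2 in KRT-19-positive nodules and 11.82 to 12.51 (median 12.19) in control liver, 4.95-fold lower (log2 difference -2.31 ± 0.20 SE, adjusted p = 1.05e-13). The mannose-binding lectin Mbl2, which binds microbial sugars and starts the lectin pathway, had 7.75 to 9.16 (median 8.49) in the nodules and 10.06 to 10.93 (median 10.62) in control, 4.2-fold lower. Neither gene's ranges overlapped. The beta chain of the C4b-binding protein (C4bpb, -1.53), an inhibitor of the classical pathway, and the lectin-pathway protease Masp2 (-1.31) followed. The related lectin Mbl1 (-1.09), C8g (-1.02), C8a (-0.90), C9 (-0.49) and factor B (Cfb, -0.78) were lower too. C2 (-0.09), factor D (Cfd, -0.13) and factor I (Cfi, -0.04) did not pass.

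Among the acute-phase genes the directions differed. C-reactive protein (Crp), a pentraxin that binds damaged cells and bacteria, had 10.62 to 12.01 (median 11.38) log2 in KRT-19-positive nodules and 12.31 to 13.22 (median 12.83) in control liver. These ranges were separate, at -1.47 ± 0.20 (SE, adjusted p = 8.88e-09). Serum amyloid A4 (Saa4, -1.03), a constitutive apolipoprotein, Itih1 (-1.02), its relative Itih4 (-0.95), serum amyloid P (Apcs, -0.88) and the serpin Serpina3n (-0.69) were also lower. Lbp, which hands bacterial lipopolysaccharide to its receptors, went the other way, with 10.13 to 11.54 (median 10.83) in the nodules and 8.24 to 9.88 (median 9.45) in control, 2.87-fold higher with no overlap (adjusted p = 0.000238). Alpha-1-acid glycoprotein (Orm1, 0.54) and alpha-1-antitrypsin (Serpina1, 0.28) were higher. With median scaling Orm1 fell short of the threshold (adjusted p = 0.507) and Serpina1 turned to -0.34, and Serpina1 did not pass under cyclic loess (adjusted p = 0.469), in the fit to the groups compared (0.052) or without control array 7 (0.0651). Among the coagulation genes F7 did not pass with the covariate of detected probes (adjusted p = 0.474). Haptoglobin (Hp), hemopexin (Hpx), Itih3, Cp, A2m and the negative reactant fetuin A (Ahsg) did not pass.

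**Figure D2:**
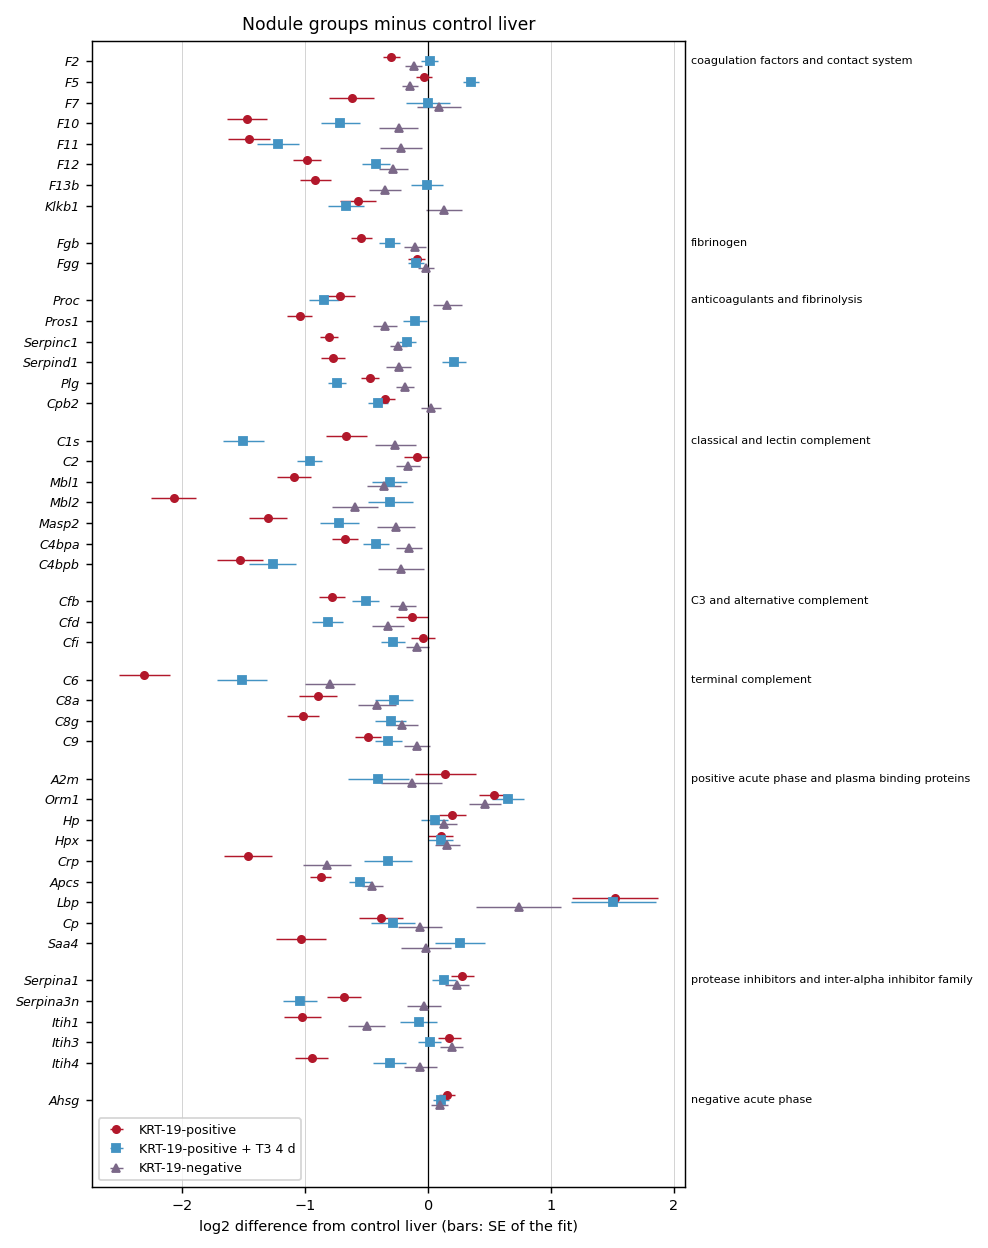
Log2 difference from control liver of each of the 45 members (points) with the SE of the fit (bars), in KRT-19-positive nodules, in the same nodules after T3 for 4 d and in KRT-19-negative nodules. Members are ordered by role. C6 and Mbl2 were furthest below control in KRT-19-positive nodules, at -2.31 and -2.07.

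KRT-19-negative nodules were closer to control liver. Against control 9 members were lower and 1 higher in KRT-19-negative nodules, where 10.7% and 11.2% of all features were (21.9% called in all), and the ranges of 1 member, Apcs, did not overlap, against 2.17%. The median difference of the members was -0.16 log2 and that of all features -0.01. The lower members were 3 coagulation genes (Pros1 -0.35, F13b -0.35, Serpinc1 -0.24), 3 complement genes (C6 -0.80, Mbl2 -0.60, C8a -0.41) and 3 acute-phase genes (Crp -0.82, Itih1 -0.50, Apcs -0.46). Orm1 was the higher one (0.46). The calls of F13b and C8a were lost in 10 and 11 of the fits that leave out 1 array (adjusted p up to 0.0901 and 0.132). Mbl2 and Itih1 missed the threshold with array weights (adjusted p = 0.0647 and 0.0502), Serpinc1 in the fit to the groups compared (0.0589) and Orm1 with median scaling (0.116). In the direct comparison KRT-19-positive nodules had 31 members lower than KRT-19-negative nodules, 0 higher and 14 that did not pass, against 32.0% of all features called, 14.7% lower and 17.3% higher. Both groups' ranges were separate for 8 members, against 2.85% of all features. C6, with 9.03 to 10.71 (median 9.86) log2 in KRT-19-positive and 10.83 to 11.83 (median 11.42) in KRT-19-negative nodules, differed by -1.51 ± 0.19 (SE, adjusted p = 1.97e-08). Mbl2 differed by -1.47, F11 by -1.24, F10 by -1.23, Saa4 by -1.01, Proc by -0.87, Serpinc1 by -0.57 and Cpb2 by -0.38, also without overlap. Protein C (Proc), which degrades activated factors V and VIII, was at 10.76 to 11.52 (median 11.12) in KRT-19-positive and 11.57 to 12.33 (median 12.01) in KRT-19-negative nodules. The comparisons share groups of arrays, so these values are given side by side.

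The T3 comparisons asked how these genes differed after 2 d and after 4 d of T3. Against untreated KRT-19-positive nodules 27.1% of all features were higher and 26.6% lower at 4 d, and 15.8% and 15.5% at 2 d. After T3 for 4 d the coagulation genes were mostly higher than in untreated KRT-19-positive nodules, with 10 of 16 higher and 1 lower, while after 2 d 1 was higher and 3 were lower. The higher one at 2 d, antithrombin (0.18), did not pass in 11 of the fits that leave out 1 array (adjusted p up to 0.117). Between the times, 11 of 16 were higher after 4 d than after 2 d and 0 lower, where 22.4% and 22.1% of all features were (44.4% called in all). Over all members 23 were higher and 6 lower after 4 d than after 2 d, and the ranges of 9 members were separate, against 9.74% of all features. Without T3 4 d arrays 1, 3, 8 and 9, F7, C4bpb, Hp, Cp and Itih3 no longer passed between the times, while Mbl1 (0.43) was higher and Cfi (-0.29) and Orm1 (-0.36) were lower at 4 d (adjusted p = 0.0189, 0.00192 and 0.0216). The arrays left out had the highest Cfi and Orm1 levels of the group and its lowest Mbl1 value (8.35 log2). The p-values of Mbl1, Cfi and Orm1 without these arrays therefore do not test an increase or a decrease. The T3 2 d and T3 4 d comparisons share the untreated arrays.

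Serpind1, the thrombin inhibitor heparin cofactor II, had 12.48 to 13.13 (median 12.99) log2 in untreated KRT-19-positive nodules, 12.50 to 13.27 (median 13.08) after T3 for 2 d and 13.73 to 14.10 (median 13.94) after T3 for 4 d. The 4 d range was separate from both others, and the gene was 1.98-fold higher at 4 d than without T3 (0.98 ± 0.09 SE, adjusted p = 6.88e-13). Pros1 had 10.13 to 10.82 (median 10.32) without T3, 10.12 to 11.02 (median 10.41) after 2 d and 11.12 to 11.44 (median 11.29) after 4 d. Its 4 d arrays also lay above all others of these 3 groups, with a difference from untreated of 0.94 ± 0.09 (SE, adjusted p = 1.84e-12). F13b, the carrier of the fibrin-crosslinking enzyme, differed by 0.91 ± 0.12 (SE, adjusted p = 6.69e-09), and its 4 d range did not overlap the untreated one. F10, at 9.19 to 10.12 (median 9.68) after 4 d against 7.99 to 9.57 (median 8.88) without T3, differed by 0.76 ± 0.15 (SE, adjusted p = 2.88e-05), and 6 of its 10 arrays lay above every untreated array. Serpinc1 (0.64), F7 (0.62), F12 (0.56), F5 (0.38) and prothrombin (F2, 0.31) were higher at 4 d, as was Fgb (0.23). Fgb did not pass without KRT-19-positive array 1 (adjusted p = 0.0626) or without T3 4 d arrays 1, 3, 8 and 9 (adjusted p = 0.0622). F2 and Fgb did not pass under cyclic loess (adjusted p = 0.455 and 0.987), nor Fgb with median scaling (0.12).

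Plasminogen (Plg) was the coagulation gene that was lower at 4 d, at 13.97 to 14.30 (median 14.13) log2 after T3 for 4 d against 14.15 to 14.67 (median 14.39) in untreated KRT-19-positive nodules, a difference of -0.26 ± 0.07 (SE, adjusted p = 0.00111). The ranges overlapped, and it was lower after 2 d as well (-0.38). With median scaling the 4 d call of Plg was lost (adjusted p = 0.0997). F11 had 7.33 to 8.64 (median 8.28) without T3, 6.62 to 8.13 (median 7.51) after 2 d and 7.76 to 8.84 (median 8.46) after 4 d. It was lower than untreated at 2 d (-0.71 ± 0.16 SE, adjusted p = 0.000515) and did not pass at 4 d (0.23), and the 4 d level was above the 2 d level (0.95 ± 0.16 SE, adjusted p = 2.84e-06). Without T3 4 d arrays 1, 3, 8 and 9, F11 was higher at 4 d than untreated (0.47, adjusted p = 0.0238). Those arrays had the lowest F11 levels of the group, so this p does not test an increase. Proc was lower at 2 d (-0.55) and not called at 4 d (-0.13). Prekallikrein (Klkb1, -0.10), Cpb2 (-0.05) and Fgg (0.00) did not pass at 4 d.

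**Figure D3:**
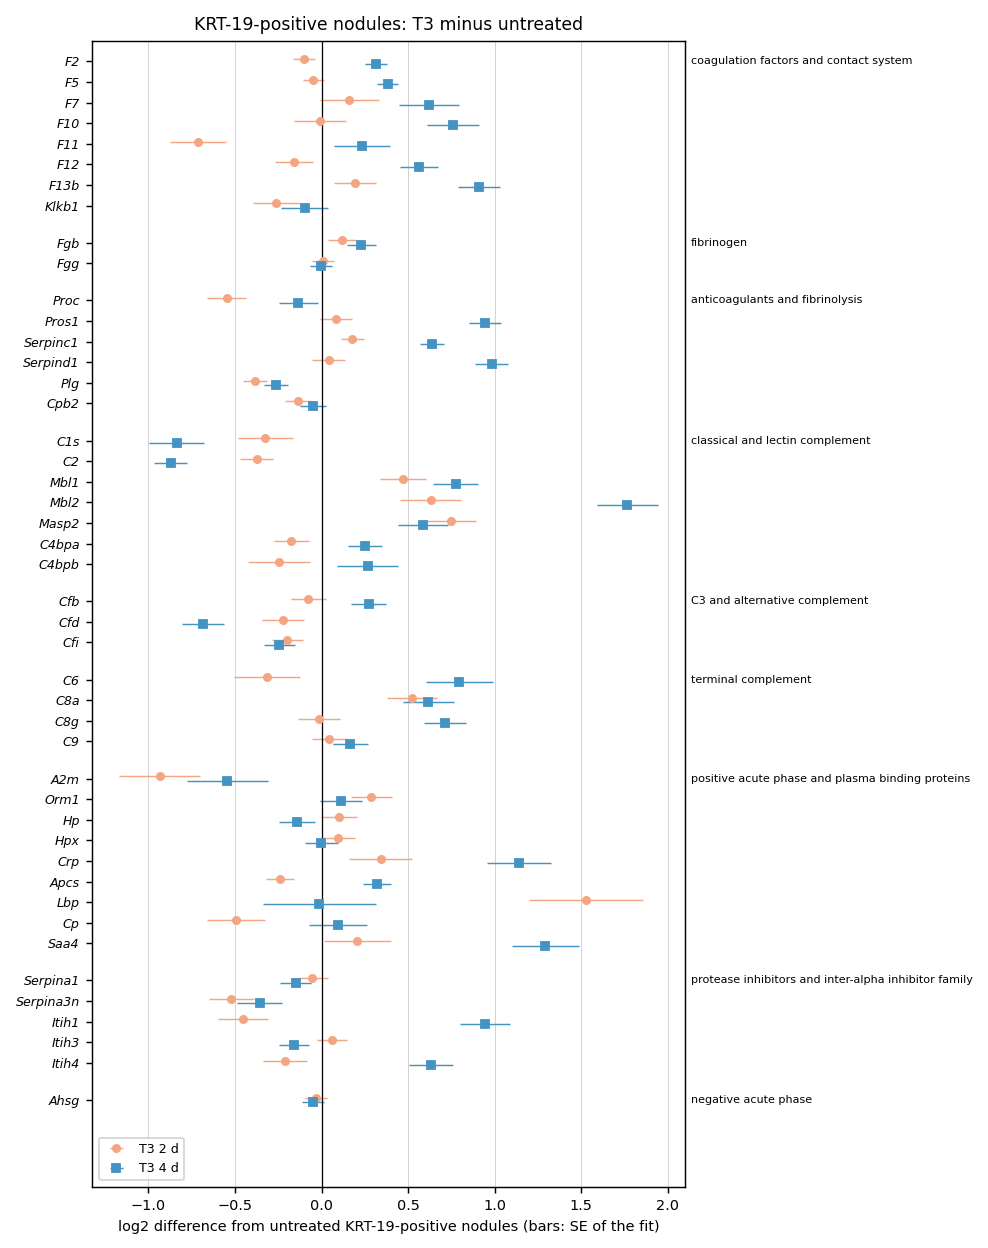
Log2 difference of each member from untreated KRT-19-positive nodules after T3 for 2 d and for 4 d (points), with the SE of the fit (bars), ordered by role. Mbl2 is at 0.63 after 2 d and 1.76 after 4 d, and Lbp at 1.53 and -0.01.

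Complement genes were called in both directions after T3. After T3 for 4 d 8 of 14 were higher and 4 lower than in untreated KRT-19-positive nodules, and after 2 d 4 were higher and 1 was lower. Of all features 27.1% were higher and 26.6% lower at 4 d, and 15.8% and 15.5% at 2 d. The count of complement genes lower at 4 d is near that share, and the count lower at 2 d is not above it. Mbl2 had 7.75 to 9.16 (median 8.49) log2 without T3, 8.12 to 10.13 (median 9.25) after 2 d and 10.06 to 10.56 (median 10.31) after 4 d. Every 4 d array lay above every untreated one, and Mbl2 was 3.4-fold higher (1.76 ± 0.18 SE, adjusted p = 2.95e-12). At 2 d it was 1.55-fold higher, with overlap. Mbl1 was higher at 2 d (0.47) and 4 d (0.77), as were Masp2 (0.75 and 0.58) and C8a (0.52 and 0.62). C6 had 9.03 to 10.71 (median 9.86) without T3, 8.54 to 10.40 (median 9.67) after 2 d and 10.23 to 10.93 (median 10.78) after 4 d. It was higher at 4 d than untreated (0.80 ± 0.19 SE, adjusted p = 0.000446), while its 2 d difference (-0.31) did not pass. C8g (0.71), the alpha chain of the C4b-binding protein (C4bpa, 0.25) and Cfb (0.27) were higher at 4 d. C4bpa and Cfb did not pass without KRT-19-positive array 1 (adjusted p = 0.0784 and 0.0642), nor C4bpa without T3 4 d array 1 or 3 (0.0731 and 0.0742), nor Cfb without KRT-19-positive array 7 (0.0662). Without T3 4 d arrays 1, 3, 8 and 9 their adjusted p was 0.484 and 0.123. Under cyclic loess neither passed (adjusted p = 0.115 for C4bpa and 0.531 for Cfb).

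The complement members that were lower at 4 d were C2, C1s, Cfd and Cfi. C2, a protease subunit shared by the classical and lectin pathways, had 12.58 to 13.17 (median 12.95) log2 without T3, 11.93 to 12.87 (median 12.65) after 2 d and 11.75 to 12.55 (median 12.01) after 4 d. Its 4 d arrays all lay below every untreated one (-0.87 ± 0.09 SE, adjusted p = 3.37e-11). C1s, the protease of the first complement component, had 12.87 to 13.41 (median 13.09), 12.28 to 13.25 (median 12.93) and 11.62 to 13.37 (median 11.99) at the same times, and was 1.79-fold lower at 4 d (-0.84 ± 0.16 SE, adjusted p = 1.24e-05). Arrays 1 and 3 of the 4 d group, at 13.37 and 13.25, overlapped the untreated range. Cfd (-0.68), which activates factor B, and Cfi (-0.24), which inactivates C3b and C4b, were lower as well. Cfi did not pass once detected probes per array entered as a covariate (adjusted p = 0.14), with median scaling (0.0546) or in the fit to the groups compared (0.0578).

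**Figure D4:**
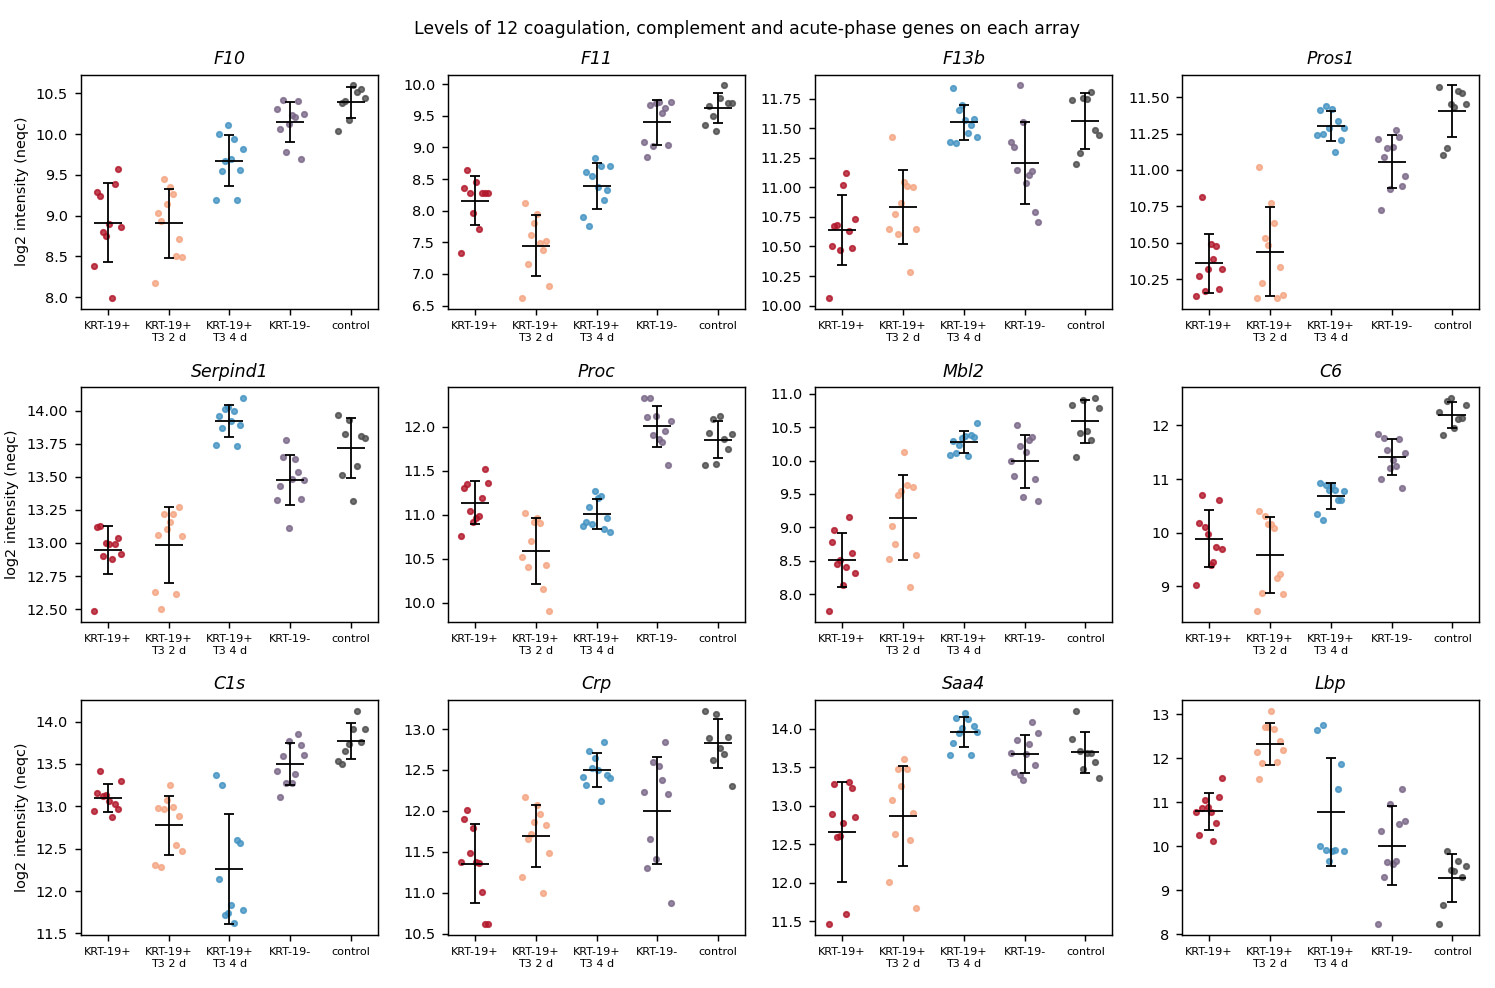
Normalised log2 intensity on each array (points) of 12 members in KRT-19-positive nodules without T3, after T3 for 2 d and 4 d, in KRT-19-negative nodules and in control liver, with the mean and SD of each group (horizontal line and bars). In Mbl2 and Serpind1 every T3 4 d array lay above every untreated one.

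Of the 15 acute-phase genes, 5 were higher and 2 lower after T3 for 4 d than without it, and 8 did not pass. After 2 d 1 was higher and 5 were lower. Of all features 27.1% were higher and 26.6% lower at 4 d, and 15.8% and 15.5% at 2 d. The count of acute-phase genes higher at 4 d is near that share. Saa4 had 11.47 to 13.31 (median 12.81) log2 without T3, 11.68 to 13.60 (median 12.99) after 2 d and 13.65 to 14.20 (median 13.98) after 4 d. The 4 d range was separate from the untreated one, and Saa4 was 2.45-fold higher (1.29 ± 0.19 SE, adjusted p = 1.08e-07). Crp had 10.62 to 12.01 (median 11.38), 11.00 to 12.16 (median 11.77) and 12.13 to 12.85 (median 12.47), and was 2.21-fold higher at 4 d with no overlap (1.14 ± 0.18 SE, adjusted p = 6.14e-07). Itih1, a chain of the hyaluronan-binding inter-alpha inhibitors, had 12.43 to 13.67 (median 13.22), 12.05 to 13.71 (median 12.70) and 13.92 to 14.32 (median 14.12). It was lower than untreated at 2 d (-0.45 ± 0.14 SE, adjusted p = 0.0118) and higher at 4 d (0.94 ± 0.14 SE, adjusted p = 1.63e-07). Apcs also changed direction, at -0.24 after 2 d and 0.32 after 4 d, and Itih4 was higher at 4 d (0.63). The 2 d call of Itih1 was lost once detected probes per array entered as a covariate (adjusted p = 0.28), that of Apcs with median scaling (adjusted p = 0.138), and the 4 d call of Apcs under cyclic loess (adjusted p = 0.073).

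Lbp was the acute-phase gene that was higher after T3 for 2 d. It had 10.13 to 11.54 (median 10.83) log2 without T3, 11.53 to 13.07 (median 12.29) after 2 d and 9.66 to 12.75 (median 9.96) after 4 d, and was 2.88-fold higher at 2 d than untreated (1.53 ± 0.33 SE, adjusted p = 0.000257). Of the 10 arrays at 2 d, 9 lay above every untreated array. At 4 d Lbp did not pass (-0.01 ± 0.33 SE, adjusted p = 0.978), and that group was divided, as given above. Without T3 4 d arrays 1, 3, 8 and 9 Lbp was lower at 4 d than untreated (-0.92, adjusted p = 0.00464). Those arrays had the highest Lbp levels of the group, so leaving them out lowers Lbp by itself and this p does not test a decrease. A2m, alpha-2-macroglobulin and a strong acute-phase reactant of the rat, was detected on 9 of 10 untreated arrays, 3 of 10 after 2 d and 5 of 10 after 4 d. It was lower than untreated at 2 d (-0.93 ± 0.23 SE, adjusted p = 0.00164) and at 4 d (-0.55 ± 0.23 SE, adjusted p = 0.0451), and the 4 d call was lost in 11 of the fits that leave out 1 array (adjusted p up to 0.106). With most T3 arrays at background the size is uncertain, and over the alternatives it ran from -0.97 to -0.35 at 2 d, with each call kept, and from -0.85 to -0.20 at 4 d, where 7 of 14 alternatives lost the call (adjusted p up to 0.19). Serpina3n, a serpin of the antichymotrypsin family, was lower at 2 d (-0.52) and 4 d (-0.36), and Cp at 2 d (-0.49). At 4 d Serpina3n did not pass with median scaling (adjusted p = 0.203). Neither Serpina3n at either time nor Cp passed once detected probes per array entered as a covariate, and Cp at 2 d did not pass without T3 2 d array 1 (adjusted p = 0.0589). Hp, Hpx, Orm1, Serpina1, Itih3 and Ahsg did not pass at either time.

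**Figure D5:**
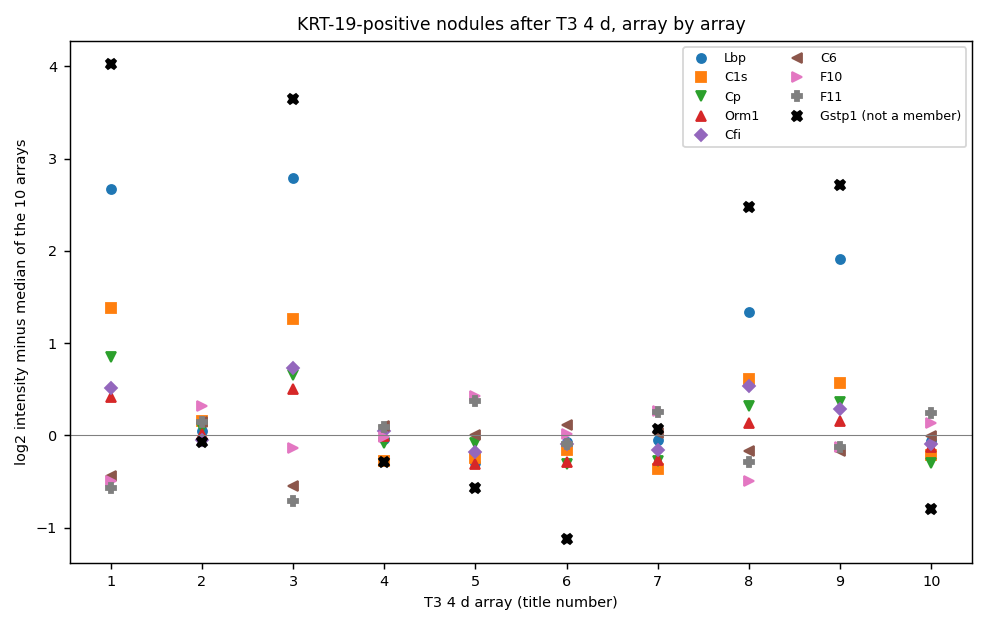
Normalised log2 intensity of 8 members and Gstp1 on each T3 4 d array, minus the median of the 10 arrays of that gene, against the title number of the array. Arrays 1, 3, 8 and 9 lie above the other 6 for Lbp, C1s, Cp, Orm1, Cfi and Gstp1, and below them for C6, F10 and F11.

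Set against control liver, nodules after T3 for 4 d had 21 members lower, 3 higher and 21 that did not pass, against 42.0% of all features called, 20.3% lower and 21.7% higher. The ranges were separate for 17 members, against 11.6% of all features. No control or KRT-19-negative title names T3, so nodule state and T3 cannot be told apart in this comparison. The median of the members was -0.31 log2, with -0.24 for coagulation, -0.47 for complement and 0.01 for acute-phase genes. Of the 31 members below control in KRT-19-positive nodules, 22 were higher after T3 for 4 d than without it. Over all features 27.1% were higher in that T3 comparison. The share among all features below control was not computed, so the 22 members have no matched baseline. Of these 22, 13 did not pass against control at 4 d (F2, F7, F13b, Pros1, Serpinc1, Serpind1, Mbl1, Mbl2, C8a, Crp, Saa4, Itih1 and Itih4) and 9 were still lower (F10, F12, Fgb, Masp2, C4bpa, Cfb, C6, C8g and Apcs). Itih4 at 4 d (14.26 to 14.51 log2) still did not overlap control (14.57 to 15.09). Under cyclic loess Itih4, Serpinc1 and F2 were lower than control (adjusted p = 0.00145, 2.72e-05 and 0.0043). In the fit to the groups compared Itih4, Mbl2 and Crp were lower (adjusted p = 0.00196, 0.0279 and 0.0212). Mbl1 was lower without background correction (adjusted p = 0.0416) and Itih1 with median scaling (0.0299). C8g was at the threshold against control (adjusted p = 0.0499), and its call was lost in 29 of the fits that leave out 1 array (adjusted p up to 0.114). Without T3 4 d arrays 1, 3, 8 and 9 C8g did not pass (-0.14, adjusted p = 0.463), Serpinc1 (-0.21), Cp (-0.57) and A2m (-0.71) were lower than control (adjusted p = 0.0447, 0.0155 and 0.0339), and Serpind1 was higher (0.29, adjusted p = 0.0449). The arrays left out had the highest Cp and the lowest Serpind1 levels of the group. They also held its highest Serpinc1 value (14.57 log2) and its lowest C8g value (12.52 log2). The arrays were set apart after their values were seen, so none of the p-values without them is a test. The comparisons share the untreated nodules or the control arrays, so a chance value in a shared group enters both, and a p that misses the threshold does not show equal levels.

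Some of these genes stayed well apart from control. C6 after T3 for 4 d, at 10.23 to 10.93 (median 10.78) log2 against 11.82 to 12.51 (median 12.19) in control, was 2.85-fold lower with no overlap. C1s was 2.84-fold lower than control, C4bpb 2.4-fold and F11 2.34-fold, each with separate ranges (adjusted p = 1.87e-10, 2.4e-07 and 5.47e-08). Plg, C1s and Serpina3n were lower than control in untreated KRT-19-positive nodules and lower again after 4 d of T3, at -0.74, -1.50 and -1.05 against control. The 3 members above control at 4 d were Lbp (1.51), Orm1 (0.65) and F5 (0.35). Lbp did not pass without T3 4 d arrays 1, 3, 8 and 9 (adjusted p = 0.0999), and Orm1 did not pass with median scaling (adjusted p = 0.237). Fgg, Hp, Hpx, Itih3 and Ahsg did not pass in KRT-19-positive nodules or T3 4 d nodules against control, nor at either T3 time against untreated nodules.

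Of 20 other coagulation and fibrinolysis genes tested, 7 were higher and 7 lower after T3 for 4 d than without T3. The endothelial protein C receptor Procr differed by -1.03 (adjusted p = 5.04e-05), thrombomodulin (Thbd) by -0.94 (adjusted p = 3.33e-05) and the hyaluronan-binding protease Habp2 by 0.69 (adjusted p = 0.000513). Against control, KRT-19-positive nodules had 6 of these higher and 10 lower, among them fibrinogen-like 1 (Fgl1) at -2.25 (adjusted p = 5.14e-07), Habp2 at -1.35 (adjusted p = 7.62e-09) and Procr at 1.35 (adjusted p = 1.46e-06). Of 13 other complement genes, 0 were higher and 7 lower after T3 for 4 d. The C1q chains, which macrophages make, were among these, with C1qa at -1.44 (adjusted p = 1.03e-13), C1qc at -1.21 (adjusted p = 8.35e-11) and C1qb at -0.99 (adjusted p = 1.64e-09). C1r, the partner protease of C1s, differed by -0.93 (adjusted p = 5.41e-10). Untreated KRT-19-positive nodules had 4 of the 13 higher and 5 lower than control. Of all features 27.1% were higher and 26.6% lower after T3 for 4 d than without it. In KRT-19-positive nodules against control the shares were 24.8% and 23.9%.

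Of 16 other plasma protein genes, 4 were higher and 3 lower after T3 for 4 d than without it, of which the retinol carrier Rbp4 (2.52, adjusted p = 3.79e-17), the corticosteroid carrier Serpina6 (2.38, adjusted p = 2.06e-20) and angiotensinogen (Agt, 1.88, adjusted p = 5.63e-19) were the highest. The iron hormone hepcidin (Hamp) was lower (-1.62, adjusted p = 7.07e-15). Of 15 regulators, 11 were higher and 1 lower. Onecut1 (2.94, adjusted p = 3.75e-10), the C/EBP alpha gene Cebpa (2.17, adjusted p = 4.24e-11) and Foxa3 (2.06, adjusted p = 2.58e-15), factors of the hepatocyte programme, were the highest. Relative to control, KRT-19-positive nodules had 2 regulators higher and 9 lower, with Foxa1 at -1.86 (adjusted p = 2.59e-11), Foxa3 at -1.79 (adjusted p = 2e-12) and Onecut1 at -1.60 (adjusted p = 0.000262). Of the 3 genes of the vitamin K cycle, which gamma-carboxylates several clotting factors, Vkorc1 was higher (0.71, adjusted p = 3.93e-09) and Ggcx lower (-0.80, adjusted p = 3.41e-07) after T3 for 4 d. The shares over all features were 27.1% higher and 26.6% lower after T3 for 4 d than without it. They were 24.8% and 23.9% in KRT-19-positive nodules against control.

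Markers of other cells differed among the groups. The cholangiocyte list includes Krt19, after which the nodule groups are named, so its sum is not independent of the labels. The summed level of 5 cholangiocyte markers, in normalised intensity without the offset, was 3927 to 10145 (median 5392) in untreated KRT-19-positive nodules, 1366 to 5648 (median 2296) after T3 for 2 d, 520 to 1009 (median 671) after 4 d, 405 to 2599 (median 1117) in KRT-19-negative nodules and 295 to 483 (median 354) in control. The median of 6 stellate cell and fibroblast markers was 7144 in untreated KRT-19-positive nodules, 6904 after T3 for 2 d, 3315 after T3 for 4 d, 3487 in KRT-19-negative nodules and 1772 in control. The sum of 7 macrophage markers was 7501 to 16106 (median 11093) in untreated KRT-19-positive nodules, 6171 to 9603 (median 7476) after T3 for 2 d and 5003 to 6695 (median 5472) after 4 d. It was 5438 to 10380 (median 7426) in KRT-19-negative nodules and 8012 to 15042 (median 8798) in control. The macrophage list includes C1qa, C1qb and C1qc, so this sum is not independent of the complement genes above. Cholangiocyte and stellate cell markers had their highest medians in untreated KRT-19-positive nodules, and macrophage markers their lowest after T3 for 4 d. In T3 4 d against untreated nodules 1 of 7 macrophage markers was higher and 4 lower. Of 5 stellate cell and fibroblast markers tested there, 1 was higher and 3 lower. Summed hepatocyte markers (5 genes) had 69355 to 123040 (median 106980) in untreated KRT-19-positive nodules. After T3 for 2 d they had 99399 to 120640 (median 110880) and after 4 d 104050 to 128770 (median 119400). KRT-19-negative nodules had 108190 to 137050 (median 125180) and control 93623 to 129000 (median 116950). Differences in so bright a sum may be understated, as for the bright members. The neutrophil markers Elane, Ngp and S100a9 were undetected in all groups. The other marker lists were small, and after T3 for 4 d against untreated KRT-19-positive nodules 1 of 2 endothelial and 1 of 1 adipocyte markers tested were higher, 2 of 4 lymphocyte markers lower and 0 of 2 platelet markers called either way. Of 3 red blood cell markers 2 were higher and 1 lower in that comparison, and 1 higher and 2 lower in untreated KRT-19-positive nodules against control. The shares over all features were 27.1% higher and 26.6% lower in the T3 4 d comparison, and 24.8% and 23.9% against control. The part of these cell types in the differences was not tested.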

How the data were processed

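Total RNA of 48 samples was labelled as biotinylated cRNA and read on 1-colour Illumina bead arrays, per the labels' protocols. The deposited table without normalisation holds, per the file headers, a linear intensity and a detection p-value for each probe and array, and BeadStudio 3.0.19.0 is named in the submitters' processing notes. A second deposited table has intensities on a quantile-normalised scale, judging by its values, and served as an alternative. The genome build is not given in the sources used here. The probes carried 1 symbol (13793) or none (8730) in the platform annotation.

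The function neqc (limma 3.58.1, R 4.3.3) subtracted background by normexp from the detection p-values with an offset of 16, equalised the quantiles of the arrays and took log2. Probes with a detection p under 0.05 on at least 8 arrays were kept, and a gene was represented by its probe with the highest raw mean, which left 8223 named and 3335 unnamed features. A linear model with 5 groups was fitted to all arrays, and 7 contrasts were tested with moderated variances that follow the mean and Benjamini-Hochberg adjustment over all features. Title numbers did not pair the arrays and no block was used. The number of arrays limits the precision.

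Named members were, per gene group and comparison, up to 4 called genes with the largest difference and those against the direction of their group. Other genes came from lists of related genes, up to 3 called per list and comparison, or were cell type markers or checks of the labels. The 10 marker lists cover hepatocytes, cholangiocytes, stellate cells, macrophages, endothelium, lymphocytes, neutrophils, platelets, adipocytes and red blood cells. Where the text departs from this rule (further members, C1r, Hamp), the genes were chosen after their values were seen. The members and lists were chosen with earlier results of these data known. The procedure was tested on simulated data, drawn with the residual spread seen here, in which 98% to 100.0% of features changed by 1 log2 and 44% to 60% of those changed by 0.5 log2 were recovered in the 7 comparisons. At each size 50 of 11558 features were changed, with independent noise and without a ceiling or normalisation step. These rates may therefore not carry over to the data. Alternatives covered offset, background correction, scaling, filter, samples in the fit, blocks, covariate, weights, probe rule, variance trend and leaving out arrays.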

Additional observations from a re-analysis of the deposited data

Results flagged for a closer look

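The difference between the effects of T3 at 4 d and at 2 d was tested directly as the contrast of both T3 groups, since both effects are taken against the same untreated arrays. It passed for 29 members. The log2 difference of 4 d minus 2 d was positive in 23 of them, in descending order Itih1 (1.40), Mbl2 (1.14), C6 (1.11), Saa4 (1.08), F11 (0.95), Serpind1 (0.94), Pros1 (0.86), Itih4 (0.84), Crp (0.80), F10 (0.77), C8g (0.73), F12 (0.72), F13b (0.72), Cp (0.59), Apcs (0.56), C4bpb (0.51), F7 (0.46), Serpinc1 (0.46), F5 (0.43), C4bpa (0.43), F2 (0.41), Proc (0.41) and Cfb (0.35). It was negative in 6, namely Lbp (-1.54), C1s (-0.51), C2 (-0.50), Cfd (-0.46), Hp (-0.25) and Itih3 (-0.22). The calls of Hp, Itih3, F7 and C4bpb were each lost in some fits that leave out 1 array, with 24, 4, 3 and 1 such fits and adjusted p values up to 0.0907, 0.0866, 0.0564 and 0.0554. Without T3 4 d arrays 1, 3, 8 and 9 the calls of these 4 and of Cp were also lost (adjusted p = 0.344, 0.208, 0.0614, 0.0909 and 0.178 for Hp, Itih3, F7, C4bpb and Cp), while Mbl1 (0.43), Cfi (-0.29) and Orm1 (-0.36) gained a call. The arrays left out had the highest Cp, Cfi and Orm1 levels of the group and its lowest Mbl1 value, so these changes are a description. With median scaling F2, F7, Hp and Itih3 did not pass (adjusted p = 0.0669, 0.225, 0.161 and 0.223).

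A single array lay far from the rest of its group, by Dixon's ratio of its gap to the range, in 14 of 225 combinations of member and group. Chance gives about 1 in 20 such groups. In nodules after T3 for 4 d Masp2 on array 3 (7.68 log2) and Hpx on array 8 (14.66 log2) lay apart. In nodules after T3 for 2 d Klkb1 on array 1 (9.81 log2), A2m on array 3 (6.15 log2), Hp on array 2 (14.86 log2) and Serpina1 on array 10 (14.67 log2) lay apart. In untreated KRT-19-positive nodules Pros1 on array 3 (10.82 log2), Serpind1 on array 1 (12.48 log2), Hpx on array 5 (14.41 log2) and Itih1 on array 7 (12.43 log2) lay apart. In KRT-19-negative nodules Masp2 on array 9 (7.90 log2) and A2m on array 1 (4.58 log2) lay apart. In control liver Itih4 on array 8 (15.09 log2) and Ahsg on array 7 (14.42 log2) lay apart.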

How the results depend on the processing

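Counts of called members were recomputed under 15 alternatives and with each array left out in turn. The choice to leave out T3 4 d arrays 1, 3, 8 and 9 was made after seeing the data. For T3 4 d against untreated nodules the members called higher ranged from 18 to 23 and those lower from 4 (median scaling) to 8. Without those arrays they were 21 and 8. For KRT-19-positive nodules against control the lower count stayed between 31 and 39, and the higher count was 1 with median scaling and 6 with detected probes as a covariate. At T3 2 d the lower count was 16 under cyclic loess and 17 with array weights. KRT-19-negative nodules had 16 lower and 0 higher members than control with median scaling, and 2 higher with the covariate or without the 4 arrays. KRT-19-positive against KRT-19-negative nodules had 1 higher member in the fit to the groups compared, with array weights and without the 4 arrays.

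With 1 array left out, T3 4 d against untreated gave 20 to 23 higher and 6 to 7 lower, T3 2 d 5 to 7 and 8 to 10, and T3 4 d against T3 2 d 22 to 24 and 4 to 6. KRT-19-positive nodules against control gave 2 to 4 higher and 31 to 32 lower, KRT-19-negative 1 to 3 and 7 to 12, KRT-19-positive against KRT-19-negative 0 to 1 and 29 to 31, and T3 4 d against control 3 to 4 and 20 to 24.

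With median scaling the median of all features was -0.26 log2 in KRT-19-positive nodules against control, 0.18 at each T3 time against untreated and -0.17 between nodule types, in place of -0.03, 0.00 (4 d), 0.01 (2 d) and -0.01. The share of called features that were higher was then 31.2% in place of 51%, 61.3% in place of 50.5% (4 d), 72.9% in place of 50.4% (2 d) and 32.4% in place of 54.1%. Signs turned under it for Hpx (-0.50), Serpina1 (-0.34) and Ahsg (-0.48) in KRT-19-positive nodules against control, for Hp (-0.54), Serpina1 (-0.57) and Ahsg (-0.54) between nodule types, and for F2 at T3 4 d against control (-0.49). Under cyclic loess F2 in that comparison was -0.26 and Serpinc1 at T3 2 d -0.004. With the title number as a replicate block, which does not pair the arrays (19 of 92 same-numbered pairs correlated above 0.1, median -0.03), 308 of 315 member results kept their direction and side of the threshold, 6 lost and 1 gained a call, and lower against upper title numbers as a block changed 1. The cause of these shifts was not tested. Signals near the ceiling limit the bright members.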
